A study of Homo sapiens with 18 samples.

Results

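Expression of 8 genes of tumour necrosis factor (TNF) signalling was followed in THP-1 cells, a human line of monocytic leukaemia cells, after knockdown of TRAFD1 and after lipopolysaccharide (LPS). The genes were taken by name, with earlier results of these data known: the ligands TNF, LTA, LTB, TNFSF10 and TNFSF13B and the receptors TNFRSF1A, TNFRSF1B and LTBR. All 8 had a row with counts among the 63677 genes of the deposited table, of which 34092 had a count in at least 1 of the 18 libraries. Cells of this single line were transfected with 25 nM of an siRNA against TRAFD1 (KD) or of a scrambled, non-targeting siRNA (SCR), or received no siRNA (WT). For WT, 1 label calls the cells untreated and another says that they got the transfection mix alone, so the effect of the reagent and that of the control siRNA cannot be told apart in SCR against WT. At 72 h after transfection the cells were given 10 ng/ml LPS, a wall component of Gram-negative bacteria, or medium alone (unstimulated) for 4 h. Each of the 6 groups had 3 libraries from cultures grown in triplicate, labelled as replicates 1 to 3 for medium and 4 to 6 for LPS. A single siRNA was directed at TRAFD1, and its target sequence is shown because every KD value depends on it.
TRAFD1 siRNA target: CCCAGCCGACCCATTAACAAT

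TNF is the main early cytokine that monocytes and macrophages release on LPS. TNF and lymphotoxin alpha, the product of LTA, both bind the receptors encoded by TNFRSF1A and TNFRSF1B, whereas lymphotoxin alpha anchored to the membrane by lymphotoxin beta binds the receptor encoded by LTBR. These receptors recruit TRAF adaptors and lead to NF-kB activation, and NF-kB in turn induces TNF, LTB and feedback inhibitors such as TNFAIP3.

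Libraries held between 8206023 and 22344279 counts. TRAFD1 was at 22.2, 21.2 and 18.3 CPM (counts per 1000000 counts of the library, its total scaled by the TMM method) in unstimulated WT, at 26.8, 20.1 and 24.3 in SCR and at 11.6, 5.37 and 9.02 in KD. With LPS it was at 19.2, 20.3 and 11.6 CPM in WT, at 21.9, 27.4 and 18.7 in SCR and at 15.8, 14.0 and 13.8 in KD. KD was lower than SCR without LPS (log2 fold change -1.45, SE 0.23, edgeR quasi-likelihood adjusted p = 0.028), and the difference with LPS was -0.65 (SE 0.22, adjusted p = 0.26). KD was also lower than WT without LPS (-1.23, SE 0.23, edgeR adjusted p = 0.0016). With LPS the difference from WT was -0.23 (SE 0.23, adjusted p = 0.56), and the libraries overlapped. TRAFD1 rose with LPS in KD (0.73, SE 0.23, adjusted p = 0.046). IL1B, CXCL8, CXCL10 and NFKBIA, which LPS induces in monocytes, rose with LPS in all 3 conditions, with log2 changes between 1.83 and 6.96, and IL6 was too low to be tested. All 10 monocytic markers had counts in every group, with a summed level of 591.3 to 914.5 CPM. T cell markers summed to at most 0.616 CPM and erythroid and platelet markers to at most 0.113 CPM. Epithelial markers summed to at most 0.604 CPM, NK cell markers to between 10.8 and 18.5 CPM, and B cell markers to between 2.52 and 6.28 CPM, with MS4A1 at 0 in 12 of 18 libraries.

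All 8 genes passed the filter on low counts, and would have passed it without any 1 of the 6 groups. Of 96 differences (8 genes in 12 comparisons), 25 passed an adjusted p of 0.05 over the 16678 genes tested. With LPS, TNF, LTB, LTA, TNFSF10 and TNFSF13B rose and TNFRSF1B fell in WT, so that 6 of 8 genes were called where 14.3% of all tested genes were. In SCR, TNF, LTB and TNFSF10 rose, which is 3 of 8 against 17.2% of all tested genes. In KD, TNF, LTB and LTA rose, which is 3 of 8 against 11.5% of all tested genes. The median log2 change of the 8 genes was 0.57 in WT, 0.13 in SCR and 0.36 in KD, beside medians of -0.03, -0.03 and -0.0029 over all genes tested. The 3 responses use separate libraries. As the genes were chosen with earlier results known, their counts beside the shares of all tested genes are a description. LPS and unstimulated libraries did not overlap for 6 of 8 genes in WT, 5 of 8 in SCR and 4 of 8 in KD, where this held for 32.5%, 37.3% and 25.4% of all tested genes.

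**Figure D1:**
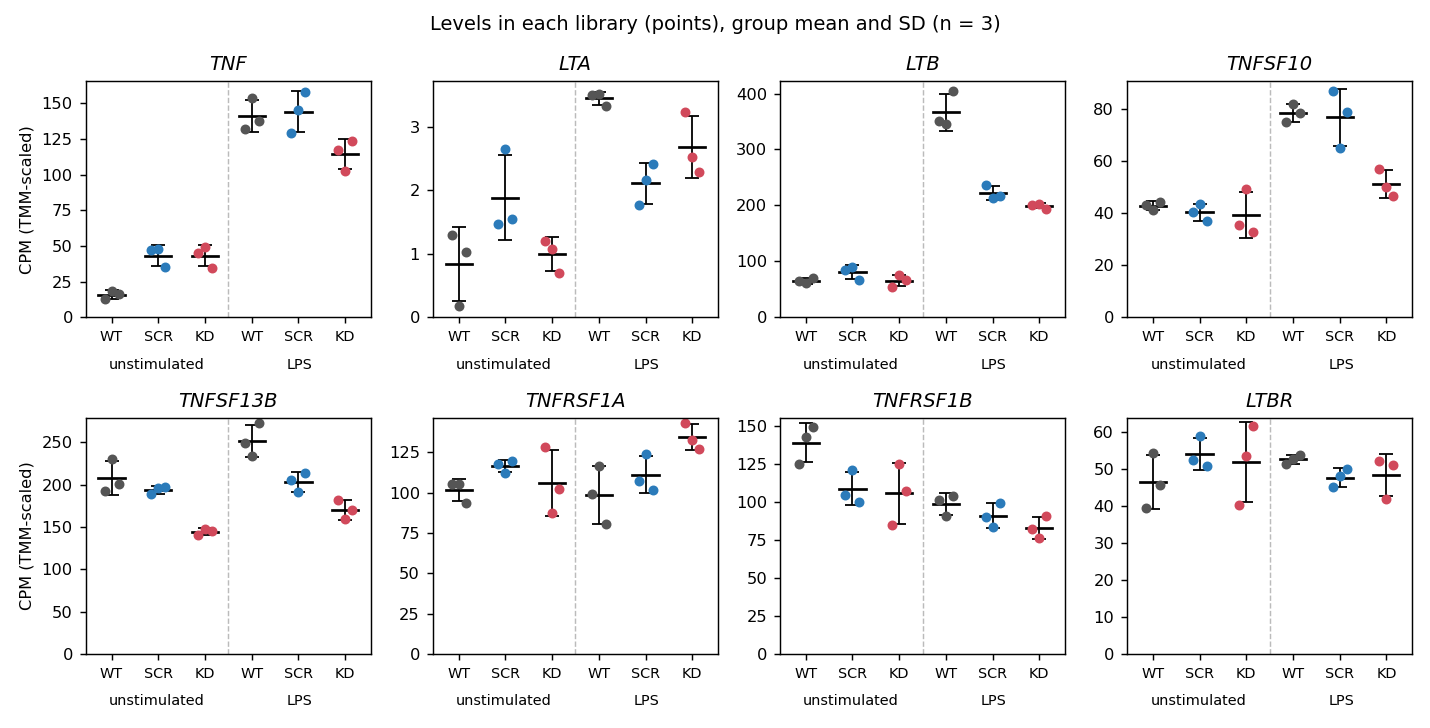
Level of each gene (CPM, linear axis from 0) in each of the 18 libraries, with the mean (horizontal line) and SD (bar, n = 3) of each of the 6 groups, unstimulated to the left of the dashed line and LPS to the right. TNF is at 12.7 to 18.7 CPM in unstimulated WT and at 34.9 to 49.6 CPM in the unstimulated siRNA groups, whereas LTB separates WT from both siRNA groups with LPS.

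Between conditions, the count of genes called differed by contrast. In SCR against WT, TNF was higher without LPS (1 of 8 genes, against 3.23% of all tested genes) and LTB was lower with LPS (1 of 8, against 0.114%). In KD against WT, TNF was higher and TNFRSF1B and TNFSF13B were lower without LPS (3 of 8, against 11.7%). With LPS, LTB, TNFSF10 and TNFSF13B were lower and TNFRSF1A was higher in KD than in WT (4 of 8, against 10.8%). TRAFD1 itself was not called in that contrast (-0.23, edgeR adjusted p = 0.56). The effects of siRNA delivery and of lower TRAFD1 cannot be told apart in KD against WT. In KD against SCR, which sets the TRAFD1 siRNA against the control siRNA, edgeR called 0 of 8 genes in both states, against 0.066% of all tested genes without LPS and 0% with LPS. Unadjusted p was under 0.05 for 2 of the 8 without LPS and 3 of the 8 with LPS, and DESeq2 on all 18 libraries, which gave LTA no adjusted p here, called 1 gene in each state, TNFSF13B without and TNFSF10 with LPS. The libraries of KD and SCR did not overlap for 5 of 8 genes with LPS, where this held for 21.5% of all tested genes, and for 2 of 8 without LPS, against 15.1%. For SCR against WT it was 4 of 8 in both states, against 22.6% without and 22.8% with LPS, and for KD against WT it was 2 of 8 without LPS, against 24.3%, and 7 of 8 with LPS, against 35% of all tested genes. The contrasts against WT share the WT libraries, and those with SCR or KD share theirs.

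TNF, on chromosome 6 at 31543342 to 31546113 of GRCh37 on the plus strand (ENSG00000232810), lies 1241 bases downstream of LTA. In unstimulated WT it was at 12.7, 18.7 and 16.2 CPM. In unstimulated SCR it was at 46.9, 47.9 and 35.1 CPM, and in unstimulated KD at 45.2, 49.6 and 34.9 CPM. Both siRNA groups were therefore above every WT library and overlapped each other. With LPS, TNF was at 132.1, 153.4 and 137.3 CPM in WT, at 129.0, 145.3 and 157.4 CPM in SCR and at 116.8, 102.7 and 123.2 CPM in KD. WT and SCR overlapped with LPS, and all 3 KD libraries were below both.

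Without LPS, TNF was 2.74-fold higher in SCR than in WT (log2 1.46, SE 0.15, edgeR adjusted p = 9.4e-06) and 2.74-fold higher in KD than in WT (log2 1.45, SE 0.16, adjusted p = 1.1e-05). The difference of KD from SCR was -0.0032 on the log2 scale, with a 95% interval from -0.31 to 0.31. LPS raised TNF 8.92-fold in WT (log2 3.16, SE 0.16, adjusted p = 4.3e-12), 3.32-fold in SCR (1.73, SE 0.15, adjusted p = 3.3e-08) and 2.64-fold in KD (1.40, SE 0.15, adjusted p = 9.7e-07). The response differed from that of WT by -1.42 in SCR (SE 0.21, adjusted p = 0.0021), where 0.234% of all tested genes differed, and by -1.76 in KD (SE 0.21, adjusted p = 1.0e-04), where 0.36% did. These 2 interactions share the WT libraries. The mean with LPS was 140.9 ± 11.1 CPM in WT and 143.9 ± 14.2 CPM in SCR (SD, n = 3), and 15.9 ± 3.01 and 43.3 ± 7.10 CPM without, so the groups were apart before LPS and overlapped after it. Without LPS the summed monocytic markers ran from 591.3 to 718.4 CPM in WT, 726.3 to 798.9 in SCR and 796.9 to 914.5 in KD, with 0 of the 10 at 0 in any group. WT was thus below both siRNA groups, by a narrow margin from SCR, and SCR and KD overlapped. Of the 10, CD14, the LPS co-receptor, was called higher in SCR than in WT (1.14, SE 0.20, adjusted p = 0.0031), and CD14 (0.72), CD68 (0.95) and ELANE (0.67) were called higher in KD than in WT. That is 1 of 10 against 3.23% of all tested genes for SCR, and 3 of 10 against 11.7% for KD. LYZ, CSF1R, MPO and S100A9 had lower unstimulated means with the control siRNA than without siRNA, none of them called, and the other markers had higher means. The median log2 difference of the 10 markers was 0.08 for SCR against WT and 0.13 for KD against WT. The part of the markers in the TNF differences was not tested.

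The KD level with LPS, 114.2 ± 10.5 CPM, differed from SCR by -0.33 (SE 0.14, 95% interval -0.63 to -0.036, adjusted p = 0.37) and from WT by -0.30 (SE 0.14, adjusted p = 0.18). Neither passed. When only the compared groups were fitted, the difference from WT passed with edgeR (adjusted p = 0.016) and DESeq2 (0.011), and that from SCR passed with DESeq2 alone (0.032). The LPS response of KD differed from that of SCR by -0.33 (SE 0.21, adjusted p = 0.72), a comparison in which edgeR called 0 of 8 genes and 0% of all tested genes, with unadjusted p under 0.05 for 2 of the 8 and 0 calls by DESeq2.

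**Figure D2:**
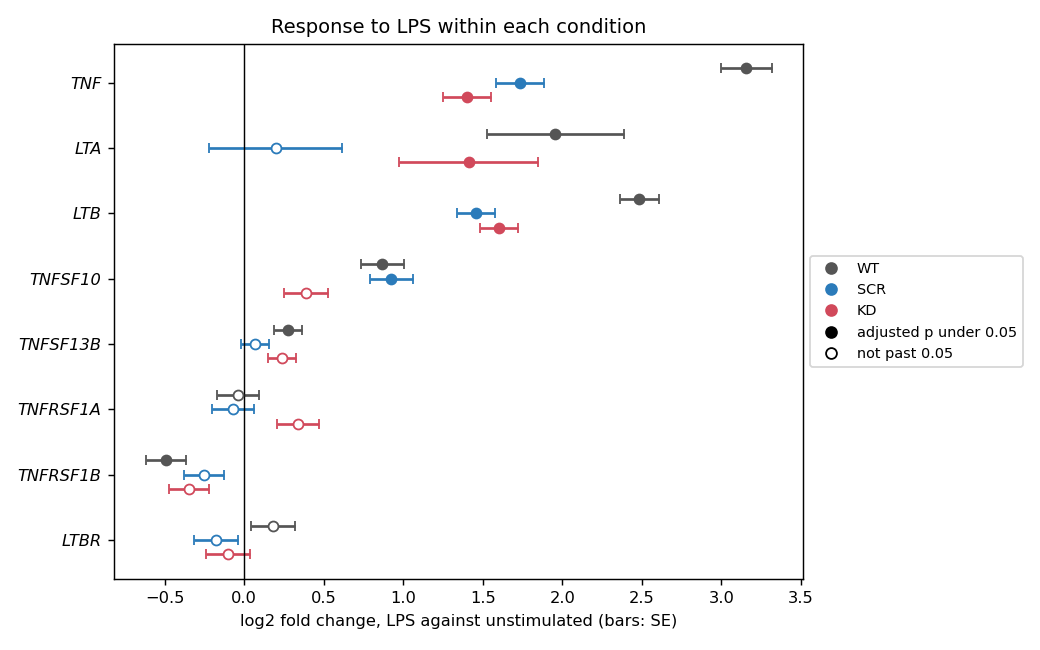
Log2 fold change (horizontal axis, bars are SE) of each gene with LPS against unstimulated, in WT, SCR and KD, from 3 libraries a group; filled points passed an adjusted p of 0.05. TNF and LTB rose in all 3 conditions and most in WT, at 3.16 and 2.48, and LTBR has no filled point.

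The bases before the starts of TNF, LTB and TNFSF10, the ligands called with LPS in both WT and SCR, are shown for the promoter motifs they hold. They come from RefSeq on GRCh38.p14, 250 bases on the strand of the gene up to its most upstream start. Capitals mark matches to the NF-kB consensus (either strand, in 5.08% of 27326 such windows), to the interferon response element core, GAAA and GAAA parted by any 2 bases (either strand, in 3.07%), or to TATAAA (strand of the gene, in 7.2%).
TNF chr6:31575315-31575564 (+): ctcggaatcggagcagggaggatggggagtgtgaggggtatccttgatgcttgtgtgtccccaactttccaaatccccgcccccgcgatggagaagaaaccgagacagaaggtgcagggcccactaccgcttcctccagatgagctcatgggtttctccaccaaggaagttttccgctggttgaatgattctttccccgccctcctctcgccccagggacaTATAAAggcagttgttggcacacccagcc
LTB chr6:31582426-31582675 (-): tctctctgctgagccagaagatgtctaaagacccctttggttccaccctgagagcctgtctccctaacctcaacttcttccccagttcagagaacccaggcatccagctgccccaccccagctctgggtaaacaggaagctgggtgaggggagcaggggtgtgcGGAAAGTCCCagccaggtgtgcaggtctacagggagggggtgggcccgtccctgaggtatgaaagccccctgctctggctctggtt
TNFSF10 chr3:172523431-172523680 (-): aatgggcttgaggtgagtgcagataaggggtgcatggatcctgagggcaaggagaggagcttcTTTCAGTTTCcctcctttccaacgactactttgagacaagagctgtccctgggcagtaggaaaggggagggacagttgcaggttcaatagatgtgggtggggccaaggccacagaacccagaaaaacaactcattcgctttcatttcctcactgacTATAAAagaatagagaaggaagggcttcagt
The TNF window held TATAAA from 29 to 24 bases before the start and no exact match to the other motifs. Only exact matches were sought, so a stretch that differs from a motif in any letter is not marked. The LTB window held a match to the NF-kB consensus from 86 to 77 bases before the start, and the TNFSF10 window held the interferon element core on the opposite strand from 187 to 178 bases and TATAAA from 31 to 26 bases before it. Among the other 5 genes, TNFRSF1B had a match to the interferon element core from 10 to 1 bases before the start, and LTA, LTBR, TNFRSF1A and TNFSF13B had none of the 3. RefSeq also lists a second start of LTA 190 bases downstream, with an NF-kB match beginning 103 bases and TATAAA beginning 31 bases before it, and a second start of TNFSF13B 89 bases downstream, with the interferon element core beginning 71 bases before it. A match is a match of letters, and binding was not measured.

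LTA, on chromosome 6 at 31539831 to 31542101 on the plus strand (ENSG00000226979), encodes the lymphotoxin that is secreted alone or joined to lymphotoxin beta. It was the lowest of the 8 in counts, with 2 to 42 per library, and 3 counts amount to between 0.133 and 0.378 CPM in these libraries. It was at 1.30, 0.18 and 1.02 CPM in unstimulated WT, 1.47, 2.65 and 1.54 in SCR and 1.21, 1.07 and 0.70 in KD. After LPS, WT had 3.50, 3.51 and 3.33 CPM, SCR 1.77, 2.16 and 2.41 and KD 3.23, 2.52 and 2.29. The LPS and unstimulated libraries were apart in WT and KD and overlapped in SCR. LTA rose with LPS in WT (log2 1.96, SE 0.43, adjusted p = 0.0032) and in KD (1.41, SE 0.44, adjusted p = 0.039), and its change in SCR was 0.20 (SE 0.42, adjusted p = 0.80). The KD call was lost when the KD libraries alone were fitted (adjusted p = 0.094 with edgeR and 0.095 with DESeq2) and with single libraries left out, where adjusted p was 0.073 without unstimulated replicate 2, 0.15 without unstimulated replicate 3, and 0.12, 0.084 and 0.058 without LPS replicates 4, 5 and 6. The SCR response differed from that of WT by -1.76 (SE 0.60, adjusted p = 0.38), which did not pass.

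LTB, on chromosome 6 at 31548302 to 31550299 on the minus strand (ENSG00000227507), encodes the membrane anchor of the lymphotoxin heterotrimer. It was at 64.7, 60.8 and 71.1 CPM in unstimulated WT, 84.8, 90.4 and 67.2 in SCR and 55.2, 75.2 and 67.2 in KD, and the 3 groups overlapped. LPS brought it to 350.0, 345.7 and 404.8 CPM in WT, 236.3, 213.2 and 217.2 in SCR and 201.3, 202.6 and 194.4 in KD. With LPS every WT library was above every SCR library, and every SCR library above every KD library.

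LPS raised LTB 5.59-fold in WT (log2 2.48, SE 0.12, adjusted p = 2.8e-12), 2.75-fold in SCR (1.46, SE 0.12, adjusted p = 1.4e-08) and 3.03-fold in KD (1.60, SE 0.12, adjusted p = 4.9e-09). The response was smaller than in WT by -1.02 in SCR (SE 0.16, adjusted p = 0.0049) and by -0.88 in KD (SE 0.17, adjusted p = 0.018), and TNF and LTB were the only 2 of the 8 genes called in each of these interactions. The calls between conditions for LTB were with LPS, those for TNF without it: SCR was below WT by -0.72 (SE 0.12, adjusted p = 0.0088) and KD by -0.88 (SE 0.12, adjusted p = 4.4e-04), while without LPS the differences were 0.30 (adjusted p = 0.17) and 0.0047 (adjusted p = 0.99). KD differed from SCR by -0.16 with LPS (SE 0.12, adjusted p = 0.61). The call of SCR against WT with LPS was lost without WT replicate 6 (adjusted p = 0.11) and without SCR replicate 5 (0.097) or 6 (0.060). The smaller response in KD than in WT was lost without WT unstimulated replicate 1 (adjusted p = 0.052), WT LPS replicate 6 (0.082), KD unstimulated replicate 2 (0.063) or KD LPS replicates 5 (0.058) and 6 (0.067), each left out alone.

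TNFSF10, on chromosome 3 at 172223298 to 172241265 on the minus strand (ENSG00000121858), encodes TRAIL, a ligand of death receptors that interferons are known to induce. Unstimulated levels overlapped, with 43.2, 41.2 and 44.3 CPM in WT, 40.5, 43.6 and 37.0 in SCR and 35.3, 49.2 and 32.9 in KD. With LPS it was at 75.1, 81.8 and 78.2 CPM in WT, 86.8, 64.9 and 78.6 in SCR and 56.9, 50.1 and 46.6 in KD. All 3 KD libraries with LPS lay below all libraries of WT and SCR.

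TNFSF10 rose with LPS 1.83-fold in WT (log2 0.87, SE 0.14, adjusted p = 1.0e-04) and 1.90-fold in SCR (0.93, SE 0.14, adjusted p = 6.7e-05). In KD the change was 0.39 (SE 0.14, adjusted p = 0.072), and 0.59 (adjusted p = 0.0052) without unstimulated replicate 2, the highest of its group. KD with LPS was lower than WT (-0.62, SE 0.14, adjusted p = 0.0082). Against SCR the difference was -0.58 (SE 0.14, 95% interval -0.87 to -0.30, adjusted p = 0.13). It did not pass with edgeR on all libraries, and passed with DESeq2 on all 18 libraries (adjusted p = 0.0082), without the filter on low counts (0.0021) and when KD and SCR alone were fitted (0.037 with edgeR, 8.6e-04 with DESeq2). The response in KD differed from that in SCR by -0.54 (SE 0.19, adjusted p = 0.60).

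TNFSF13B, on chromosome 13 at 108903588 to 108960832 on the plus strand (ENSG00000102524), encodes BAFF, the B cell survival factor made by myeloid cells. It was at 192.8, 230.8 and 200.8 CPM in unstimulated WT, 188.8, 196.5 and 197.4 in SCR and 140.1, 147.9 and 145.6 in KD. The levels with LPS were 248.7, 234.3 and 272.5 CPM in WT, 205.8, 190.9 and 214.0 in SCR and 182.4, 159.3 and 170.0 in KD. In both states the KD libraries were below every library of the other 2 conditions.

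TNFSF13B was lower in KD than in WT without LPS (0.69-fold, log2 -0.53, SE 0.089, adjusted p = 7.3e-04) and with it (0.68-fold, -0.56, SE 0.089, adjusted p = 0.0012). Against SCR the differences were -0.43 without LPS (SE 0.089, 95% interval -0.61 to -0.24, adjusted p = 0.066) and -0.26 with LPS (SE 0.089, adjusted p = 0.27). The former passed with DESeq2 on all 18 libraries (0.0036) and without the filter (0.020). With edgeR on the compared groups alone, KD against WT without LPS had an adjusted p of 0.068. SCR differed from WT with LPS by -0.31 (SE 0.089, adjusted p = 0.17), and DESeq2 on all libraries called it (0.042). The rise with LPS in WT was 1.21-fold (log2 0.28, SE 0.089, adjusted p = 0.042). It was not called without WT unstimulated replicate 1 (0.18) or 3 (0.14) or without WT LPS replicate 4 (0.091) or 6 (0.20), nor without the filter on low counts (0.16) or with WT alone fitted (0.079 with edgeR, 0.064 with DESeq2). With LPS the summed monocytic markers ran from 748.7 to 840.5 CPM in KD, 675.1 to 704.4 CPM in WT and 674.1 to 748.0 CPM in SCR, so that KD was apart from both, from SCR by a narrow margin. Of the 10 markers only ELANE was called in KD against WT with LPS (0.42, SE 0.12), from a mean of 233.3 to 313.1 CPM, and edgeR called 0 in KD against SCR (unadjusted p under 0.05 for 3). Of all tested genes, 10.8% were called in KD against WT with LPS and 0% in KD against SCR. Without LPS the means of ELANE were 201.5 CPM in WT and 319.4 CPM in KD, and LYZ, ITGAM and MPO had differences below 0 there, at -0.25, -0.23 and -0.90, that did not pass. The part of the markers in the differences of KD was not tested, and in bulk libraries fewer cells with an mRNA and less of it per cell cannot be told apart.

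**Figure D3:**
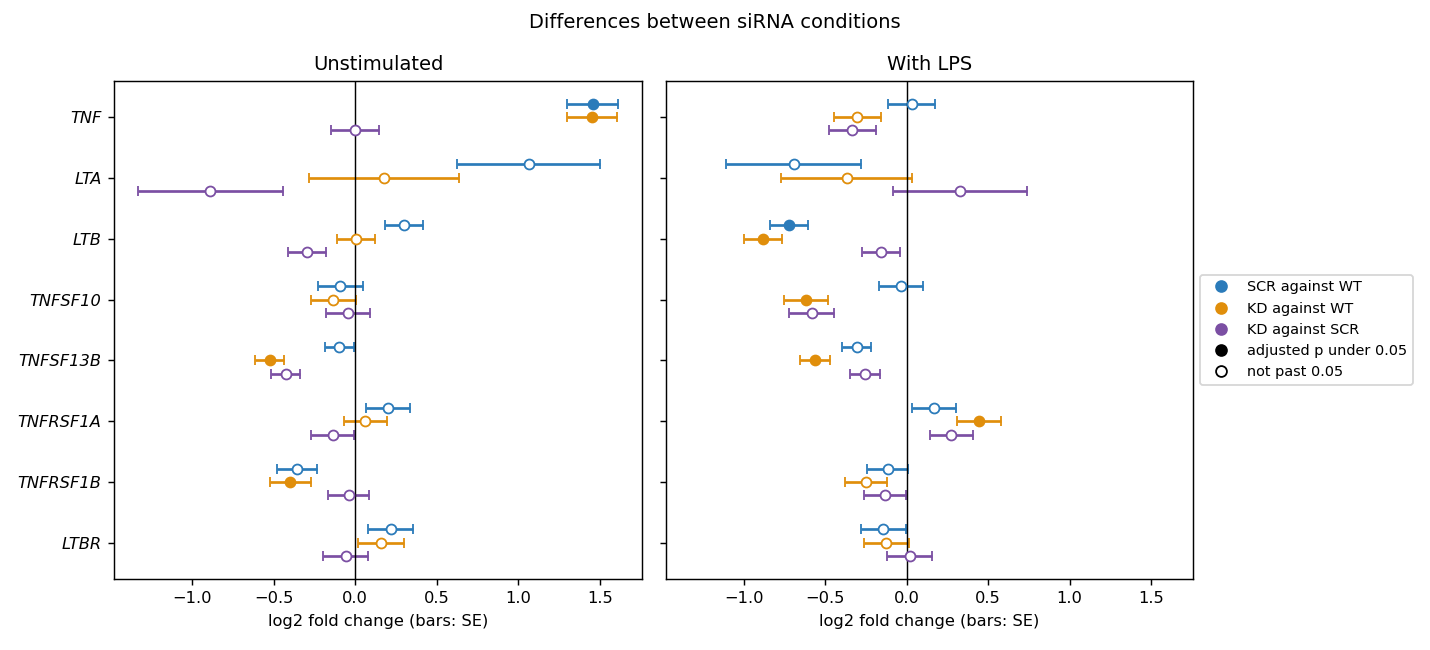
Log2 fold change (horizontal axis, bars are SE) between SCR, KD and WT for each gene, without LPS (left) and with LPS (right), from 3 libraries a group; filled points passed an adjusted p of 0.05. TNF stands at 1.46 and 1.45 against WT without LPS, LTB at -0.72 and -0.88 with LPS, and no point of KD against SCR is filled.

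TNFRSF1A, on chromosome 12 at 6437923 to 6451280 on the minus strand (ENSG00000067182), encodes the broadly expressed TNF receptor with a death domain. Without LPS it was at 105.5, 105.7 and 93.7 CPM in WT, 117.9, 112.5 and 119.8 in SCR and 128.3, 87.3 and 102.5 in KD. With LPS it was at 99.3, 116.6 and 80.5 CPM in WT, 107.2, 124.1 and 101.9 in SCR and 143.3, 132.7 and 127.2 in KD. The KD libraries with LPS were above all libraries of WT and SCR with LPS. KD was 1.36-fold higher than WT with LPS (log2 0.44, SE 0.13, adjusted p = 0.037). The call was lost without WT replicate 4 (adjusted p = 0.084), without WT replicate 6, the lowest (0.31 on the log2 scale, adjusted p = 0.22), and without KD replicate 4 (0.11), 5 (0.089) or 6 (0.058). Against SCR the difference was 0.27 (SE 0.13, adjusted p = 0.43). The change with LPS was -0.039 in WT, -0.072 in SCR and 0.34 in KD (SE 0.13 each, adjusted p = 0.89, 0.77 and 0.10), and the last became 0.50 (adjusted p = 0.0093) without KD unstimulated replicate 1.

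TNFRSF1B, on chromosome 1 at 12227048 to 12269285 on the plus strand (ENSG00000028137), encodes the TNF receptor of blood and endothelial cells, which lacks a death domain. It was at 125.0, 143.1 and 149.3 CPM in unstimulated WT, 104.7, 121.0 and 100.4 in SCR and 84.7, 125.2 and 107.3 in KD. The LPS libraries had 101.4, 90.8 and 104.2 CPM in WT, 90.4, 83.5 and 99.6 in SCR and 82.3, 76.3 and 90.8 in KD. TNFRSF1B fell with LPS in WT (0.71-fold, log2 -0.49, SE 0.13, adjusted p = 0.0099), a call lost without WT unstimulated replicate 3 (0.053) or WT LPS replicate 5 (0.066). Its changes were -0.25 in SCR (adjusted p = 0.18) and -0.35 in KD (adjusted p = 0.081), and the latter was -0.48 (adjusted p = 0.0063) without KD unstimulated replicate 1. The decline was not shown to differ between conditions: the interactions were 0.24 for SCR and 0.15 for KD against WT (SE 0.18 each, adjusted p = 0.67 and 0.74). Without LPS, KD was lower than WT (-0.40, SE 0.13, adjusted p = 0.044) although 1 KD library exceeded the lowest WT library. This call was lost with RLE size factors (0.061), with the compared groups alone (0.27 with edgeR, 0.23 with DESeq2), and without WT replicate 2 (0.093) or 3 (0.17) or KD replicate 1 (0.17) or 3 (0.085). SCR differed from WT by -0.36 (SE 0.13, adjusted p = 0.13), with no overlap of libraries.

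As a description, the ratio of TNFRSF1B to TNFRSF1A CPM within a library was 1.38 ± 0.21 in unstimulated WT (SD, n = 3), 0.93 ± 0.13 in SCR and 1.05 ± 0.39 in KD. With LPS it was 1.03 ± 0.26 in WT, 0.83 ± 0.15 in SCR and 0.62 ± 0.080 in KD. The lowest WT ratio without LPS, 1.18, was above all 3 SCR ratios, and the unstimulated KD ratios ran from 0.66 to 1.43.

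LTBR, on chromosome 12 at 6484211 to 6500737 on the plus strand (ENSG00000111321), encodes the receptor for membrane lymphotoxin and drives the non-canonical NF-kB route. It was at 39.6, 54.2 and 45.8 CPM in unstimulated WT, 52.4, 58.9 and 50.8 in SCR and 40.4, 53.5 and 61.7 in KD. The values with LPS were 51.5, 52.7 and 53.9 CPM in WT, 45.0, 48.1 and 50.0 in SCR and 52.2, 41.9 and 51.1 in KD. No comparison passed for LTBR. Over the 6 differences between conditions and the 3 LPS responses, the 95% intervals lay between -0.47 and 0.51 on the log2 scale, and a difference within its interval is not shown to be absent. SCNN1A, which overlaps LTBR on the other strand, had 55 counts over all 18 libraries.

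Genes that act just below the receptors were read from a list of 28 adaptors, kinases, deubiquitinases and NF-kB subunits, of which 26 could be tested. With LPS, 10 rose and 1 fell in WT, 9 rose and 2 fell in SCR, and 11 rose and 2 fell in KD, where 14.3%, 17.2% and 11.5% of all tested genes were called in either direction. TNFAIP3, the deubiquitinase A20 that restrains NF-kB, rose by log2 values of 3.43, 2.55 and 2.38 in WT, SCR and KD (SE 0.17, 0.16 and 0.16). BIRC3, a ubiquitin ligase held by TRAF2, rose by 2.88, 1.86 and 2.29 in the same order. NFKB2, the precursor of p52, rose by 2.39, 1.10 and 1.65, and IKBKB, a kinase of the IkB kinase complex, fell by 0.40, 0.39 and 0.31. RBCK1, of the linear ubiquitin chain assembly complex, fell by 0.54 in SCR and 0.61 in KD. The median of the list was 0.13 in WT, 0.32 in SCR and 0.32 in KD, beside -0.03, -0.03 and -0.0029 over all genes tested.

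Without LPS, 4 of the 26 were higher in SCR than in WT (RELB, BIRC3, TNFAIP3 and NFKB2) and 0 were lower. Of all tested genes, 3.23% were called in that contrast. The same 4 were higher in KD than in WT and 3 were lower, against 11.7% of all tested genes called. RELB, the partner of p52, was higher by 1.19 in SCR (SE 0.17) and 0.76 in KD (SE 0.17), and TNFAIP3 by 1.10 and 0.99 (SE 0.17 each). BIRC3 was higher by 1.22 in SCR and 0.80 in KD, and NFKB2 by 0.75 and 0.53. BIRC2, IKBKB and CFLAR were lower in KD than in WT, by -0.53, -0.36 and -0.35. These are values beside TNF, which stood at 1.46 and 1.45 in these contrasts, and the WT libraries are shared between both. With LPS, CHUK was higher in KD than in WT (1.73, SE 0.43, adjusted p = 0.014), CFLAR, BIRC2 and RELB were lower (-0.51, -0.38 and -0.57), and edgeR called 0 of 26 in SCR against WT (unadjusted p under 0.05 for 5). The calls in KD against WT with LPS were 4 of 26, against 10.8% of all tested genes, and SCR against WT had 0.114%. The LPS response was smaller than in WT for RELB in SCR (-1.67, SE 0.23, adjusted p = 0.0014) and KD (-1.32, SE 0.23, adjusted p = 0.011), for NFKB2 in SCR (-1.29, SE 0.18, adjusted p = 0.0014) and for TNFAIP3 in KD (-1.05, SE 0.23, adjusted p = 0.046). In KD against SCR edgeR called 0 of 26, with unadjusted p under 0.05 for 5 without LPS, 4 with LPS and 4 in the response.

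**Figure D4:**
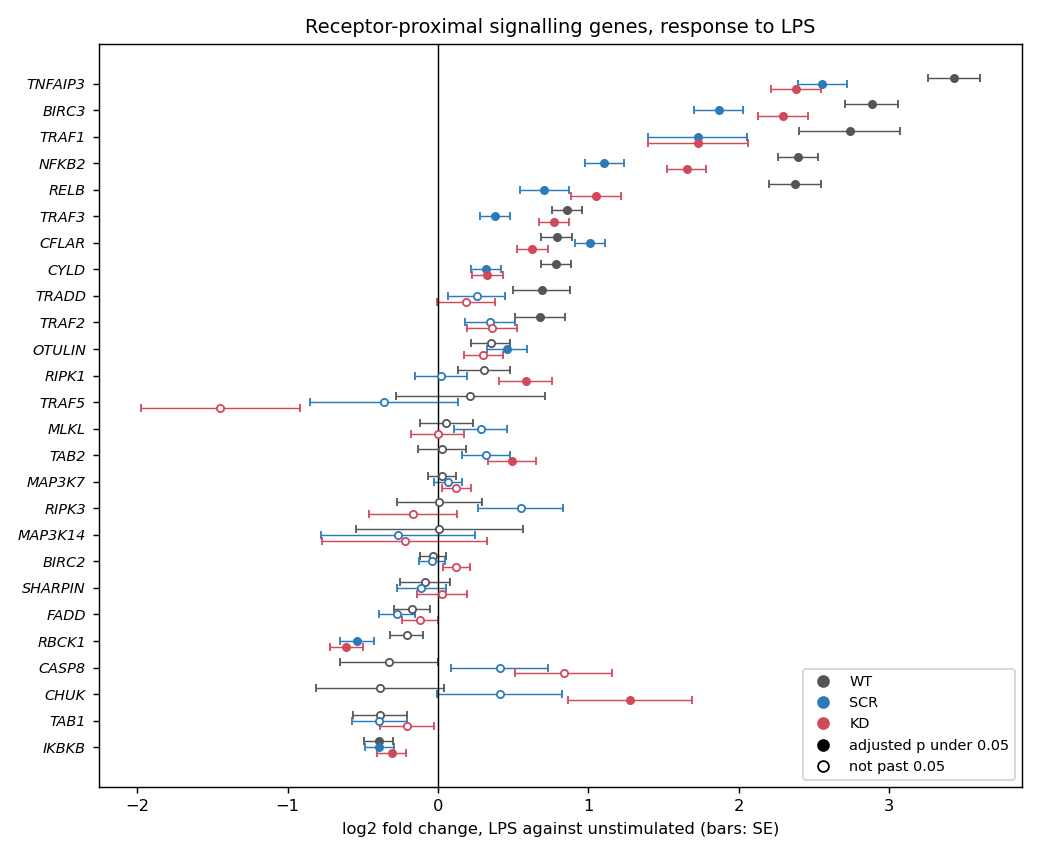
Log2 fold change with LPS (horizontal axis, bars are SE) of the 26 tested receptor-proximal signalling genes in WT, SCR and KD, from 3 libraries a group, ordered by the WT value; filled points passed an adjusted p of 0.05. TNFAIP3 stands furthest to the right in WT, at 3.43, and IKBKB is filled below 0 in all 3 conditions.

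A list of 11 genes of TNF shedding and TNF mRNA control gave 5 higher and 0 lower with LPS in WT, and 3 higher and 1 lower in SCR and in KD, against the same 14.3%, 17.2% and 11.5% of all tested genes. ADAM17, the protease that releases TNF from the membrane, rose by 0.41, 0.37 and 0.41 in WT, SCR and KD (SE 0.10 each). LITAF, named as a factor in LPS-induced TNF transcription, rose by 0.47, 0.47 and 0.37. Without LPS, TIMP3, the inhibitor of ADAM17, was higher than in WT in SCR (1.01, SE 0.11) and KD (0.93, SE 0.11). ZFP36, whose protein destabilizes TNF mRNA, was higher in KD than in WT without LPS (1.38, SE 0.31) and with it (0.93, SE 0.30), and ZFP36L1 was higher in SCR (0.90) and KD (0.58) without LPS. RHBDF1, an adaptor of ADAM17, was lower in KD than in WT without LPS (-0.86, SE 0.24), LITAF was lower in both states (-0.33 without and -0.43 with LPS), and SPPL2B, a protease that cleaves TNF in the membrane, was lower with LPS (-0.56, SE 0.13). Called in KD against WT were 5 of 11 without LPS and 3 of 11 with it, against 11.7% and 10.8% of all tested genes. SCR against WT had 2 of 11 without LPS, against 3.23%. In KD against SCR edgeR called 0 of 11 in both states, with unadjusted p under 0.05 for 0 without LPS and 3 with it.

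Among 13 other ligands of the family, 6 could be tested. CD70 rose with LPS in WT (0.94, SE 0.26), TNFSF9 fell there (-0.47, SE 0.14), and TNFSF14, the ligand LIGHT that also binds LTBR, rose in SCR (1.57, SE 0.33) and KD (0.99, SE 0.32). Between conditions, TNFSF14 was lower in SCR than in WT (-1.23, SE 0.32, adjusted p = 0.039) and TNFSF9 lower in KD than in WT (-0.63, SE 0.14, adjusted p = 0.0054), both without LPS. Each was 1 of 6, against 3.23% of all tested genes in SCR against WT and 11.7% in KD against WT. Of these 6 ligands, edgeR called 0 in KD against SCR in both states, with unadjusted p under 0.05 for 1 without LPS and 0 with it. That 1 was TNFSF9 (-0.59, SE 0.14, adjusted p = 0.080), whose KD libraries were all below those of SCR. Among 26 other receptors, 13 could be tested. CD40 and TNFRSF9 rose with LPS in all 3 conditions, CD40 by 2.28, 1.94 and 2.01 and TNFRSF9 by 3.87, 2.80 and 2.77. TNFRSF10B, which encodes a TRAIL receptor, fell with LPS in KD (-0.42, SE 0.12), as did TNFRSF14 (-0.52) and TNFRSF21 (-0.71). Of these 13 receptors, edgeR called 0 between conditions in either state, with unadjusted p under 0.05 for at most 2 in any of the 6 comparisons.

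Beside TNFSF10, a list of 10 interferon response genes gave 5 higher and 0 lower with LPS in WT, 5 and 0 in SCR and 3 and 0 in KD, against 14.3%, 17.2% and 11.5% of all tested genes called. IFIT2 and IFIT3 rose in all 3 conditions, IFIT2 by 0.72, 0.66 and 0.49 and IFIT3 by 0.79, 0.69 and 0.51. In KD against WT with LPS, where TNFSF10 was lower, IFIT2 was higher (0.55, SE 0.13) and MX1 lower (-0.27, SE 0.08). That is 2 of 10, against 10.8% of all tested genes. Without LPS, 2 of 10 were higher and 0 lower in KD than in WT, against 11.7%. For KD against SCR edgeR called 0 of 10 in both states, with unadjusted p under 0.05 for 3 without LPS and 1 with it.

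The genes whose log2 CPM followed each member most closely over the 18 libraries were sought among 10545 genes, as a description, since the libraries share depth and the LPS contrast. For TNF these were CCL3L1 (r = 0.994), a chemokine gene that shares reads with near-identical copies, and ENSG00000256515 (0.994) and ENSG00000006075 (0.993), which had no symbol in the annotation used for names. LTB was followed by TNIP1 (0.991), PSTPIP2 (0.986) and BID (0.984), and TNFSF10 by HSP90AB1 (0.949), CFLAR (0.942) and WSB1 (0.938). LTA was followed by MTMR2 (0.915), PRKAR1B-AS1 (0.908) and ITGB2-AS1 (0.862), and TNFSF13B by ALOX5AP (0.919), SETD5 (0.902) and RAE1 (0.895). For LTBR they were PRPF6 (0.909), RHOT2 (0.890) and FBL (0.880). For TNFRSF1B they were TPRG1L (0.951), NAA80 (0.941) and PRKCB (0.938), and for TNFRSF1A RPL35P2 (0.958), PPIAP22 (0.949) and PPP3CC (0.947). The first 2 of these last are pseudogenes and the 2 antisense genes overlap others, so their reads may be shared.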

How the data were processed

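RNA of 18 THP-1 libraries was sequenced with QuantSeq 3' kits. The authors aligned reads with HISAT to GRCh37 (Ensembl 75) and deposited raw read counts per gene from featureCounts, restricted to the last 500 bases of each gene. The strand setting was not given in the sources used here. Counts were taken as deposited, and 0 columns were left out. Symbols came from GENCODE v44lift37 (55665 of 63677 genes).

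After filterByExpr by group (minimum count 10), 16678 genes were fitted over all 18 libraries with TMM factors and the quasi-likelihood F test of edgeR 4.0.16 in R 4.3.3, for 12 contrasts: 6 pairs of conditions within a state, 3 LPS responses and 3 interactions. P-values were adjusted by Benjamini-Hochberg over these genes and called under 0.05. SE is the absolute log2 fold change over the square root of F. Alternatives were RLE factors, no filter, DESeq2 1.42.0, the compared groups alone, adjusted p at most 0.01 with log2 change over 1, the replicate number as a block, and each library left out.

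The 8 members and all lists were chosen with earlier results of these data known. Text names the members, the siRNA target, LPS controls and the 3 genes most correlated with each member. Genes of the lists were drawn from up to 3 per direction, list and contrast with the smallest adjusted p. Counts of 5 or fewer were meant to be named in full, but some called genes of the interferon and TNF release lists are not named. Only for SCR and WT with LPS did all same-numbered libraries correlate in their deviations at over 0.1 (0.163 to 0.261). For KD and WT without LPS these correlations ran from 0.0039 to 0.304. The reported values come from the fit without pairing, also for these groups. The block, run as an alternative, changed no member's call in SCR against WT with LPS. Replicates within a group correlated at 0.954 to 0.981 and differed by more than counting noise in every pair (chi-square per gene 5.29 to 36.5). Intervals and floors (3 counts) cover counting error or the spread between cultures of 1 line only.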

Additional observations from a re-analysis of the deposited data

Results flagged for a closer look

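The difference between LPS responses was tested as an interaction, and 10 of those named in the text passed an adjusted p of 0.05, each smaller than in WT. Over all tested genes, the called differences from WT mostly had log2 values below 0, 36 of 39 for SCR and 50 of 60 for KD. Whether LPS raised or lowered each of these genes was not considered, so a value below 0 need not be a smaller response. For TNF the response was smaller by a log2 value of -1.42 in SCR and -1.76 in KD, and for LTB by -1.02 in SCR and -0.88 in KD. For RELB the difference was -1.67 in SCR and -1.32 in KD, for NFKB2 -1.29 in SCR, and for TNFAIP3 -1.05 in KD. CXCL10 and NFKBIA, used to check the LPS labels, differed by -2.07 and -0.63 in SCR. All of these interactions share the WT libraries. CXCL10 and NFKBIA were already higher in SCR than in WT without LPS (1.89 and 0.63, edgeR adjusted p = 6.1e-04 and 3.7e-04). With LPS they differed by -0.18 and -0.0012, which did not pass. Called without LPS were thus 2 of the 4 tested LPS controls, against 3.23% of all tested genes. In KD against WT without LPS, CXCL8 (1.82) and CXCL10 (1.03) were called higher, 2 of 4 against 11.7%.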

How the results depend on the processing

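Of the 25 called differences, 17 stayed called in every alternative other than the stricter call rule and with each library left out, and 0 of the 25 changed sign.

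In KD against SCR without LPS the count of members called, 0 in the report, was 1 without the filter, with DESeq2 on all libraries and with the replicate block. With LPS it was also 0, and became 1 without the filter, with DESeq2 on all libraries, with edgeR on the compared groups and with the replicate block, and 2 with DESeq2 on the compared groups. In SCR against WT with LPS the count of 1 became 2 with both DESeq2 fits. In KD against WT without LPS, 3 became 1 with edgeR on the compared groups. With LPS, both fits of the compared groups added TNF to that contrast (adjusted p = 0.016 with edgeR and 0.011 with DESeq2). In SCR against WT without LPS, 1 became 2 with the replicate block, which added TNFRSF1B (adjusted p = 0.033). The block also called TNFSF13B (0.018) without and TNFSF10 (0.043) with LPS in KD against SCR; these groups share only a number, with correlations from -0.0396 to 0.0911 and from -0.0875 to 0.0896. It changed no other call, and LPS against unstimulated could not be blocked because those groups share no numbers. With adjusted p at most 0.01 and a log2 change over 1, the counts were 0 for SCR against WT with LPS, 1 for KD against WT without and 0 with LPS, 3 for LPS in WT and 1 for the response of KD against WT. The same rule dropped TNFSF10 for LPS in SCR and LTA for LPS in KD. The cause of these changes was not tested, except that the stricter rule calls fewer by construction.

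With 1 library left out, the count of members called ran from 2 to 5 for LPS in KD, from 1 to 2 for the response of KD against WT and from 0 to 1 for SCR against WT with LPS. Uncalled differences near 0 changed sign. In KD against SCR without LPS, TNF was 0.0083 with RLE factors, 0.0078 with DESeq2 on all libraries, 0.042 with edgeR and 0.016 with DESeq2 on the compared groups, TNFRSF1B was 0.0054 and TNFSF10 0.0025 with edgeR on the compared groups. LTB in KD against WT without LPS was -0.0090 without the filter and -0.0064 with the replicate block. With single libraries left out, the log2 ranges that crossed 0 were, for KD against SCR without LPS, -0.13 to 0.13 (TNF), -0.20 to 0.095 (LTBR), -0.18 to 0.097 (TNFRSF1B) and -0.24 to 0.065 (TNFSF10). LTBR with LPS ran from -0.037 to 0.11 there, and in the response from -0.078 to 0.22, where TNFRSF1B ran from -0.23 to 0.041. For KD against WT without LPS they were -0.21 to 0.56 (LTA), -0.10 to 0.12 (LTB) and -0.098 to 0.18 (TNFRSF1A), and -0.11 to 0.019 for TNFSF13B in the response. For SCR against WT with LPS they were -0.037 to 0.10 (TNF) and -0.13 to 0.078 (TNFSF10), and in the response -0.16 to 0.11 (TNFRSF1A) and -0.034 to 0.17 (TNFSF10). LPS changed LTBR in KD by -0.25 to 0.045 and TNFRSF1A in WT by -0.17 to 0.090. LTA, at 2 to 42 counts per library, is the member whose precision depth limits most.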
